A study of Mus musculus with 6 samples.

Results

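The 2 RNAs described here are those detected by the array probes A_51_P349205, for Mbp, and A_51_P191669, for Chgb. They were 2 of 60706 distinct RNA probe IDs on the array, and 2 of 50 Agilent probes that carried a database accession. Both were chosen because, in these same 6 arrays, their measured m6A levels were high and their measured signals were lower in high-fat diet sperm. Their m6A levels and falls are therefore given as a description, without a test. The RefSeq gene table places Mbp on chromosome 18 and Chgb on chromosome 2. The array design names another mouse genome build than that table, so no positions are given.

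The study asked whether a paternal high-fat diet changes m6A-modified RNA in mouse sperm. Male C57BL/6N mice were fed normal chow (NC) or a diet with 60% fat (HFD) from 5 to 15 weeks of age, although an age label on the samples reads week 10. Each group had 3 arrays, from replicate experiments with different donors, and the groups differed in diet alone as far as the labels state. Sperm came from minced epididymis, were passed through a 40-µm strainer and were treated to lyse somatic cells before RNA was extracted.

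N6-methyladenosine, or m6A, is a methyl mark that enzymes write on adenosines within RNA. An antibody to m6A pulls marked molecules into the immunoprecipitate, here called IP, and leaves the others in the supernatant, called Sup. On each array the IP was read in Cy5 and the Sup in Cy3, with no dye swap, so fraction and dye cannot be told apart. The m6A level of an RNA is IP/(IP+Sup), and its expression is IP+Sup, after each channel is set against spike-in RNA added to both fractions. Mbp encodes myelin basic protein, which compacts the myelin sheath of oligodendrocytes and Schwann cells, and longer transcripts of the same gene, known as golli, are made outside myelin. Chgb encodes chromogranin B, an acidic granin that is packed into the secretory granules of neuroendocrine cells. Neither gene is known chiefly for a role in sperm.

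The fall in HFD was measured in the IP channel for both RNAs. From the processed intensities, Mbp IP signal averaged 12.1-fold lower and Chgb IP signal 4.36-fold lower in HFD, as geometric means of 3 arrays a group. Some HFD arrays were not well above background, and with HFD raised to its detection limits the IP fold was 7.89 for Mbp and 2.91 for Chgb. NC 2 weighed on Mbp, for which these folds were 6.67 and 4.34 without it. The size also depended on background treatment, with log2 IP differences of -1.92 for Mbp and -0.98 for Chgb without background correction. They were -1.16 and -0.50 with a model-based correction, against -3.60 and -2.12 from the processed intensities. The Sup channel was near background for both, and its processed values were lower in HFD on 3 of 3 arrays for Mbp but overlapped between diets for Chgb. Each array held 10 spots of each probe, and none of these spots was left out or saturated.

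Mbp gave IP intensities of 494, 3011 and 546 scanner units on NC arrays 1, 2 and 3, as geometric means of 10 spots. The HFD arrays gave 61.6, 71.4 and 113.1 units in the same order. Every HFD array lay below every NC array, and NC 2 stood far above the other 2 NC arrays. All 30 NC spots also lay above all 30 HFD spots, with a lowest NC spot of 394.9 units and a highest HFD spot of 163.4 units. Before any correction, the median brightness of the 10 spots was 45.5, 219.2 and 59.8 across the 3 NC arrays. The 3 HFD arrays read 23.8, 23.0 and 28.8, where the median negative control spot read 17, 17 and 16.

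**Figure D1:**
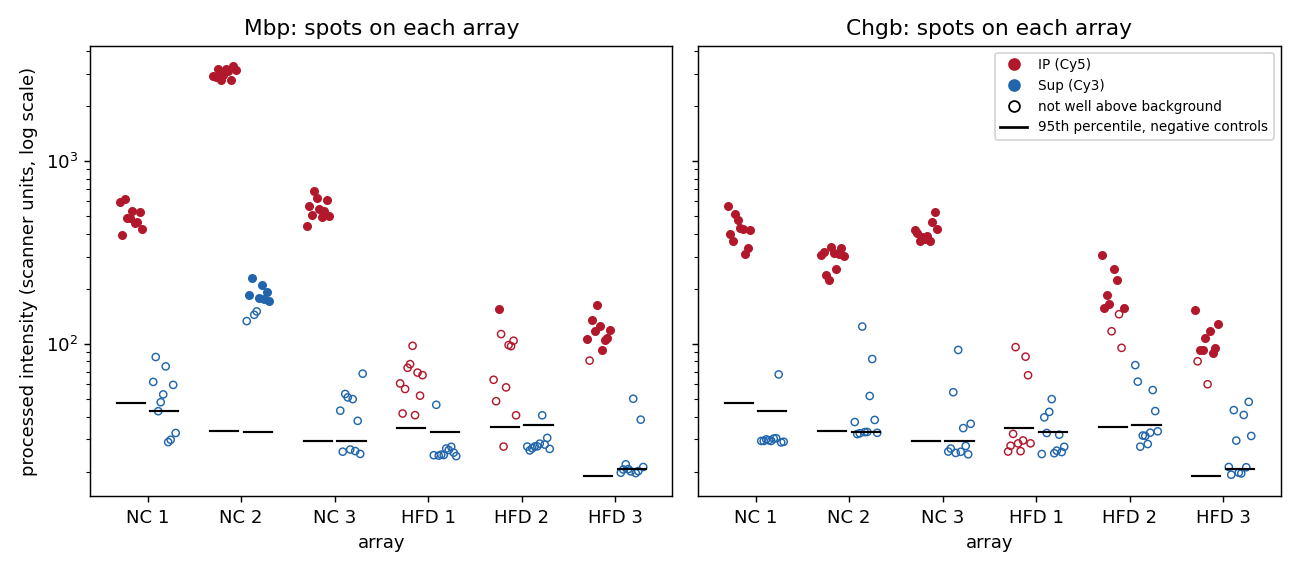
Processed intensity of each of the 10 spots of the Mbp and Chgb probes on the 6 arrays, in scanner units on a log scale, with IP in red and Sup in blue. Open circles are spots not well above background and black bars mark the 95th percentile of 308 negative control spots. Mbp IP spots reach down to 394.9 units in NC and up to 163.4 units in HFD, while nearly all Sup spots are open.

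Scaled to the spike-ins, Mbp IP was 25.4%, 141.3% and 21.8% of the spike-in mean on NC 1, 2 and 3. It was 2.88%, 3.60% and 4.23% on HFD 1, 2 and 3. On the log2 scale relative to the spike-in mean, the NC arrays averaged -1.23 with an SD of 1.498, and the HFD arrays averaged -4.83 with an SD of 0.28 (n = 3 each). HFD minus NC was therefore -3.60 for Mbp IP. NC 2 decided much of its size, since Mbp IP there was 6.01-fold above the mean of the other 2 NC arrays and the diet difference without it was 6.67-fold. Only 33 tested probes stood as far or further above the other 2 NC arrays on NC 2, and the median tested probe was 0.30 log2 units higher there.

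Chgb gave IP intensities of 416.9, 291.1 and 408.3 units on NC 1, 2 and 3, and 38.8, 170.7 and 98.4 units on HFD 1, 2 and 3. Here NC 2 was the lowest of the NC arrays, the opposite of its place for Mbp. HFD 2 came closest to the NC arrays and HFD 1 lay furthest below. The Chgb spots overlapped slightly, from 223.4 to 563.5 units in NC and from 25.7 to 306.7 units in HFD. As a share of the spike-in mean, Chgb IP reached 21.4%, 13.7% and 16.3% with normal chow but 1.81%, 8.62% and 3.68% with the high-fat diet. Its log2 IP signal averaged -2.57 ± 0.33 with normal chow and -4.70 ± 1.13 with the high-fat diet (SD, 3 arrays each). HFD minus NC was therefore -2.12 for Chgb IP. The array spread of Chgb was thus wider in HFD. That of Mbp was wider in NC through NC 2 alone, since the SD of the other 2 NC arrays was 0.16.

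**Figure D2:**
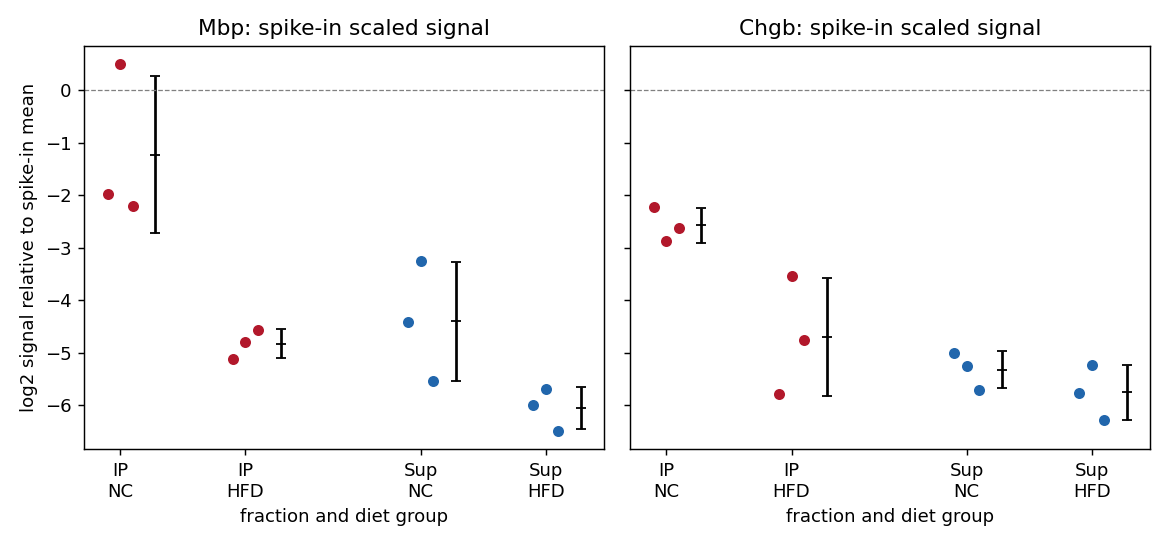
Log2 signal of Mbp and Chgb relative to the spike-in mean on each array, for IP in red and Sup in blue, with the mean and SD of 3 arrays in black. IP of both RNAs is separated by diet, with Mbp means of -1.23 and -4.83 and Chgb means of -2.57 and -4.70, while Chgb Sup overlaps.

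Background flags set how far these IP folds can be read. The scanner software called a spot well above background for all 30 NC IP spots of Mbp and all 30 of Chgb. In HFD, it did so for 0, 1 and 9 of 10 Mbp spots and for 0, 7 and 8 of 10 Chgb spots on HFD 1, 2 and 3. An array counted as well above background when the share of its spots so called was over 0.5, which left 1 of 3 HFD arrays for Mbp and 2 of 3 for Chgb. Each HFD array was also raised at least to the lowest signal of any single spot on it called well above background. The IP fold was then 7.89 for Mbp, or 4.34 without NC 2, and 2.91 for Chgb. This limit is lenient, as a Chgb spot on HFD 2 at 145.1 units was not so called, above the limit of 121.8 units. These folds are therefore not firm bounds. Mbp on HFD 1 and HFD 2 and Chgb on HFD 1 were not well above background and had only this limit. Against the 308 negative control spots of each array, the median background-subtracted IP signal of Mbp was reached by 0 spots on 5 arrays and by 1 spot on HFD 1. For Chgb it was reached by 0 spots on 5 arrays and by 8 spots on HFD 1. Mbp thus kept a measured IP signal on HFD 3, and Chgb on HFD 2 and HFD 3.

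The Sup channel held little measurable signal of either RNA. Mbp Sup intensities were 48.5, 174.7 and 38.2 units on NC 1, 2 and 3, and 26.9, 28.7 and 23.8 units on HFD 1, 2 and 3. Only NC 2 had Mbp Sup spots well above background, 7 of 10, the array on which Mbp IP was also highest. Chgb Sup intensities were 32.2, 44.1 and 33.8 units in NC and 31.6, 39.6 and 27.6 units in HFD. None of its 60 Sup spots was well above background. Among the 308 negative control spots of each array, 1, 0 and 2 reached the median background-subtracted Mbp Sup signal on NC 1, 2 and 3. On HFD 1, 2 and 3 the counts were 99, 94 and 24. For Chgb Sup they were 50, 12 and 14 in NC and 22, 8 and 4 in HFD. Where a spot is not clearly above background, the software writes a substitute close to the spot's own error, and this held for 23 of 30 HFD and 6 of 30 NC Sup spots of Mbp. For Chgb Sup it held for 15 of 30 HFD and 20 of 30 NC spots. Mean log2 Sup signals of Mbp were -4.40 ± 1.14 in NC and -6.06 ± 0.40 in HFD, and those of Chgb were -5.32 ± 0.36 and -5.75 ± 0.52 (SD, n = 3 each). No fold is read from Sup, because the lowest well-above Sup signal, averaged over the HFD arrays, lay above the NC mean of both RNAs.

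The m6A level of Mbp was 84.4%, 93.1% and 91.0% on NC 1, 2 and 3 and 64.7%, 65.0% and 79.1% on HFD 1, 2 and 3. Its means were 89.5% ± 4.52 and 69.6% ± 8.24 (SD, n = 3), with no overlap between diets. The m6A level of Chgb was 87.3%, 83.8% and 89.5% in NC and 49.7%, 76.3% and 74.0% in HFD, with means of 86.9% ± 2.87 and 66.7% ± 14.8 (SD, n = 3). These also did not overlap, although HFD 1 lay well below the other 2 HFD arrays. Without HFD 1 the log2 difference in the m6A level of Chgb was -0.21 in place of -0.41.

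Since Sup was mostly unmeasured, these levels were also computed with Sup raised to its lowest well-above signal, which gives a lower limit. For Mbp the limit was 65.9%, 93.1% and 75.8% on NC 1, 2 and 3. For Chgb it was 62.0%, 59.5% and 70.1%. Both RNAs therefore had more than 59% of their scaled signal in the IP on each NC array, even at the limit. On HFD 1, 2 and 3 the limit was 29.3%, 28.6% and 47.6% for Mbp and 20.7%, 48.9% and 44.2% for Chgb. On the arrays where IP was not well above background either, an m6A level was not measured in a strict sense. The span from limit to computed level in HFD overlapped that in NC for both RNAs, so a fall in the m6A level itself was not resolved at this signal.

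**Figure D3:**
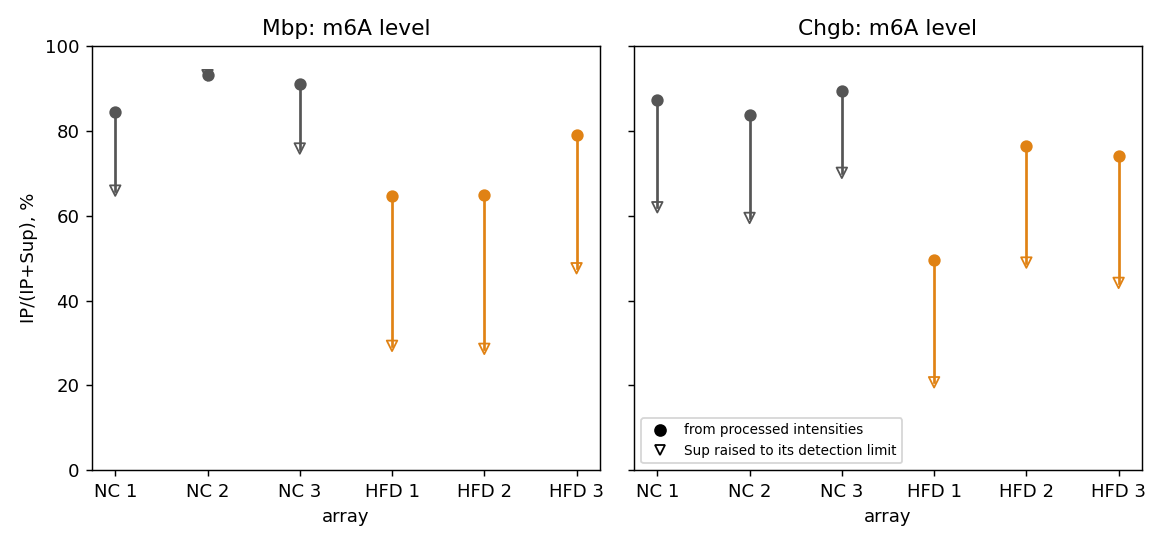
m6A level, IP/(IP+Sup) in percent, of Mbp and Chgb on each array, with NC in grey and HFD in orange. Circles use the processed intensities and triangles the level with Sup raised to its lowest well-above signal. For Mbp the circles run from 84.4% to 93.1% in NC and from 64.7% to 79.1% in HFD, and the lines down to the triangles show how far Sup at background lets them move.

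A high m6A level in NC was among the values that chose these RNAs, and the following shares describe it. The median tested probe had a level between 33.3% and 43.9% on the NC arrays. Mbp exceeded 99.4%, 99.7% and 99.7% of tested probes on NC 1, 2 and 3, and Chgb exceeded 99.7%, 96.5% and 99.5%. On HFD 1, 2 and 3, Mbp exceeded 79.7%, 81.7% and 94.7% and Chgb 58.4%, 92.3% and 91.1% of tested probes. These shares rest on Sup values that were mostly near background. At its lower limit, Mbp exceeded the computed level of 92.9%, 99.7% and 94.0% of tested probes on NC 1, 2 and 3, and Chgb that of 90.2%, 73.1% and 89.6%. On HFD 1, 2 and 3 these shares at the limit were 27.0%, 26.6% and 55.4% for Mbp and 15.8%, 60.1% and 49.1% for Chgb.

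Expression, the summed IP and Sup signal, was also lower on each HFD array than on each NC array for both RNAs. Mbp expression was -1.73, 0.60 and -2.06 on NC 1, 2 and 3 and -4.49, -4.17 and -4.23 on HFD 1, 2 and 3, in log2 units relative to the spike-in mean. Its mean was 9.40-fold lower in HFD, or 5.28-fold without NC 2. Chgb expression was -2.03, -2.62 and -2.46 in NC and -4.78, -3.15 and -4.33 in HFD, a mean 3.29-fold lower. These sums include channels that were not well above background. With NC taken from IP alone and each HFD channel raised at least to its lowest well-above signal, the expression fold was 3.54 for Mbp, or 1.95 without NC 2, and 1.35 for Chgb. In RNA from bulk sperm, fewer cells of a type and less of the RNA per cell cannot be told apart.

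Calls across the array give the background for these counts. A total of 30224 probes were tested, those above background in at least 1 channel on enough arrays. In IP, all 3 HFD arrays lay below all 3 NC arrays for both RNAs, and this held for 1.96% of tested probes, or 1.01% with a fold over 1.5 as well. In Sup it held for Mbp alone, against 5.68% of tested probes, or 2.25% with the fold. In m6A level it held for both, against 1.34%, or 0.371% with the fold, which neither RNA reached. In expression it held for both, against 4.51%, or 1.43% with the fold. A fold over 1.5 with an unadjusted p under 0.05 in limma, the rule of the closing counts, called 1.08% of tested probes lower in IP, 2.91% in Sup, 0.397% in m6A level and 1.77% in expression. As the RNAs were chosen on this contrast, nothing is read from these shares. By size, 3 tested probes had an IP difference as low as that of Mbp or lower, itself included, and 13 as low as that of Chgb. Nothing is read from these ranks either, and some of the HFD values behind them were not well above background. The median tested probe moved the other way, by 0.34 in IP, 0.08 in Sup and 0.14 in m6A level on the log2 scale relative to the spike-ins. With each channel centred on its median probe instead, the IP difference was -3.94 for Mbp and -2.46 for Chgb.

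Among the 10 Mbp IP spots of an NC array, the log2 SD was 0.09 to 0.20, while the SD over the 3 NC arrays was 1.498, or 0.16 without NC 2. In HFD, where the signal was dim, the spot SD of Mbp IP was 0.28 to 0.77 and the array SD was 0.28. For Chgb IP the spot SD was 0.17 to 0.27 in NC and 0.37 to 0.76 in HFD, with array SDs of 0.33 and 1.13. The median named Agilent probe above background had a spot SD of 0.11 and an array SD of 0.35 in IP. At matched positions on the array design, all 10 Mbp positions and 9 of 10 Chgb positions separated the diets in IP. In Sup, 5 Mbp positions and 0 Chgb positions did so. The spots of a probe share the RNA of their array and are not replicates of a diet.

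Among the 37 named Agilent probes above background, Mbp and Chgb were the only probes whose IP separated with HFD below NC. Both were chosen for their fall in these arrays, so nothing is read from this. Over all tested probes the share was 1.96%. The median of these 37 probes moved by 0.39 in IP and 0.07 in Sup on the log2 scale, HFD minus NC. Their median m6A level was 61.5% in NC and 67.0% in HFD. By mean computed level in NC, Ppara stood highest at 91.3%, Mbp and Chgb ranked 2 and 3, and Bambi was at 84.9%.

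**Figure D4:**
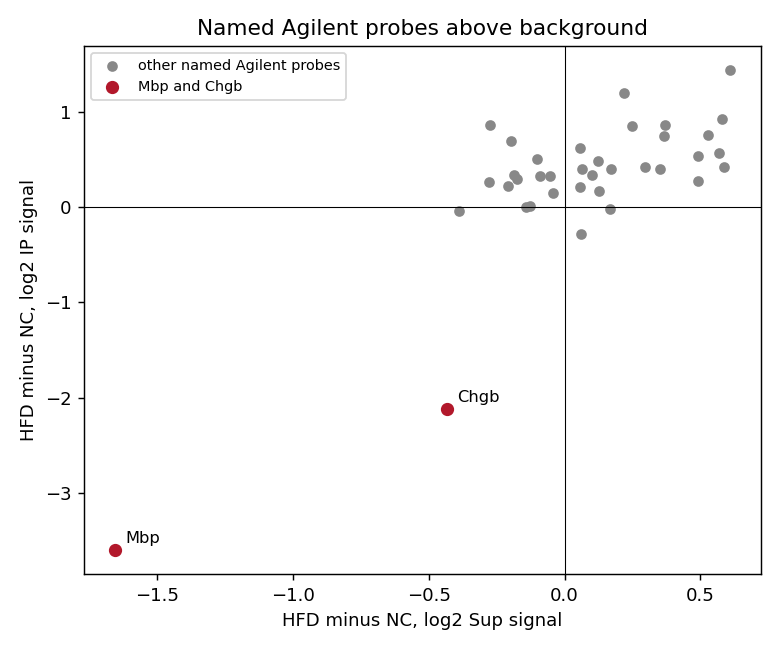
HFD minus NC difference in log2 IP signal (vertical) against that in log2 Sup signal (horizontal) for the 37 named Agilent probes above background. Mbp at -3.60 and Chgb at -2.12 in IP, both chosen for this fall, lie far below the other probes in grey.

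By the root-mean-square difference between centred log2 expression profiles over the 6 arrays, the nearest named probe to Mbp was Chgb, at 1.29. It was followed by Olfr166, an olfactory receptor, at 1.72, and Gsta4, a glutathione transferase, at 1.76. For Chgb the nearest were Actb, which encodes beta-actin, at 0.91, Prdx2, a peroxidase, at 0.92, and Olfr166 at 0.95, and Mbp ranked 29. These distances, over the tested probes with a symbol, exceeded 0.9 log2 units throughout. Actb, for one, had centred expression of 0.51, -0.26 and -0.13 on NC 1, 2 and 3 and 0.01, 0.38 and -0.51 on HFD 1, 2 and 3, with no separation by diet. Mbp and Chgb were both chosen for a fall in these arrays, so nothing is read from their nearness. Their HFD profiles also include channels that were not well above background.

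The other genes of the same pathways could not be followed by name here. Of 14 myelin genes, 1 had a named probe, Mbp itself, and of 12 genes of granins and dense-core granules, 1 had one, Chgb. None of 13 m6A writers, erasers and readers had a named probe. The same was true of 11 germ cell, 6 epididymis, 4 leukocyte, 3 Sertoli and 3 Leydig markers, so the labelled cell type could not be checked, and the part of other cell types in the Mbp and Chgb signals was not tested.

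The file headers give each array a scan and a position code, and do not say whether its first number is a slide. All 3 NC arrays shared a scan and a first number. HFD 1 and HFD 2 had the same scan but another first number, and HFD 3 had another scan. No pairing of scan and first number held both diets, so this block and diet cannot be told apart. Whether NC and HFD arrays shared a slide is not known. Mbp and Chgb IP on HFD 3, at 4.23% and 3.68% of the spike-in mean, lay below every NC array, as on HFD 1 and HFD 2. The share of spots well above background ran from 28.5% to 55.1% in IP and from 35.3% to 50.3% in Sup over the 6 arrays. A pair of Gapdh control probes gave a ratio of 3′ to 5′ signal in Sup of 1.11 to 1.46 on NC arrays. On HFD arrays it was 1.61 to 1.73, so this ratio moved with diet. In IP the ratio was 2.64 to 2.76 on NC and 2.80 to 3.83 on HFD arrays. For a Pgk1 control pair, the 3′ to 5′ contrast in Sup overlapped between diets, and its 5′ probe read only 5.38 to 6.28 log2 units. In IP the Pgk1 contrast was higher on each HFD array than on each NC array, though only just above NC 2 on HFD 1. Its 5′ probe read only 4.88 to 5.32 log2 units there. The part of RNA ends in the falls of Mbp and Chgb was not tested.

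The size of the falls depended on how background was treated, while the sign did not. With no background correction the IP difference of Mbp was -1.92 and that of Chgb -0.98 on the log2 scale. With a model-based background correction that adds an offset, they were -1.16 and -0.50.

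**Figure D5:**
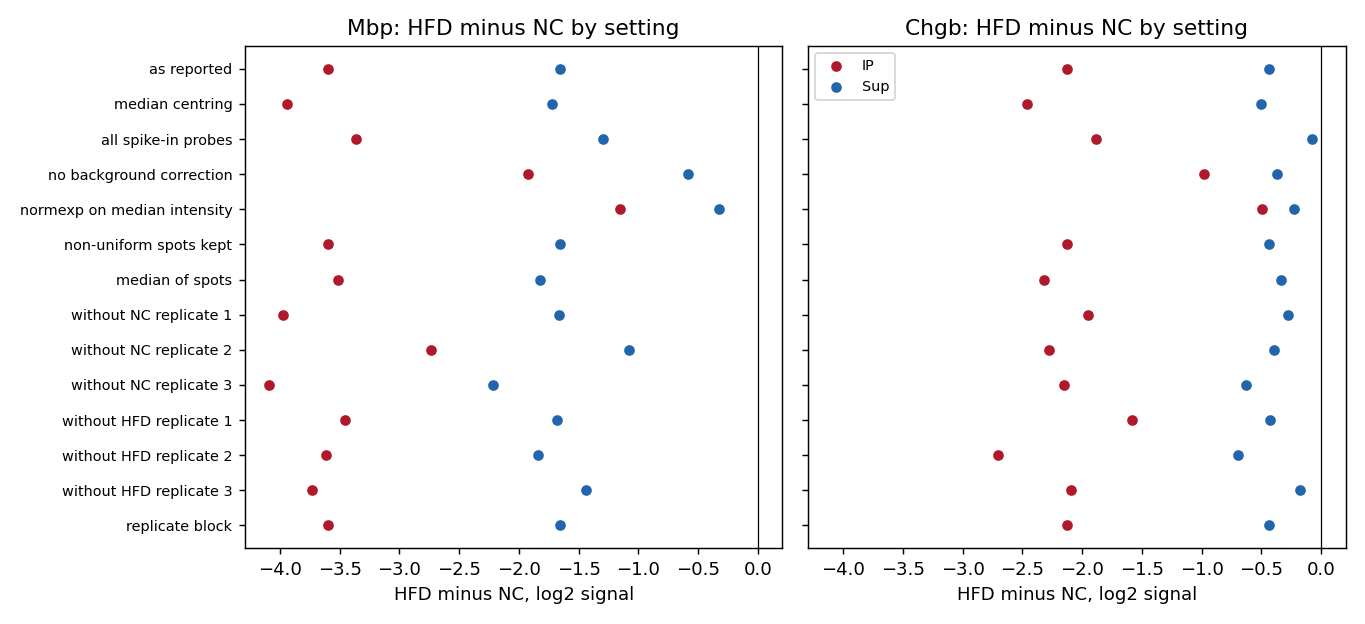
HFD minus NC difference in log2 signal of Mbp and Chgb, for IP in red and Sup in blue, as reported and under each alternative setting. All points lie below 0, and IP ranges from -4.09 to -1.16 for Mbp and from -2.70 to -0.50 for Chgb.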

How the data were processed

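Sperm RNA of 3 NC and 3 HFD samples was analysed on 6 two-color arrays, with 62976 spots each. The authors deposited 1 scanner output per array, made per the file headers with Agilent Feature Extraction 11.0.1.1, and its processed intensity was background-subtracted, detrended and dye-equalised by that software. Intensities were floored at 1, converted to log2, averaged over spots without non-uniform ones, and centred on the mean of 14 of 102 spike-in probes detected in both channels on all arrays. A probe was tested (30224 of 60706) if 3 or more arrays detected it in either channel, using the software's flag. Calls used a fold over 1.5 and an unadjusted p under 0.05 from limma 3.58.1 in R 4.3.3, checked on simulated data. Array number limits the precision, and p-values measure the spread between these samples.

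Mbp, Chgb and the gene lists were chosen with earlier results of these data known. Named besides were the 3 probes nearest in expression. Of 50 Agilent accession probes, 45 matched a symbol in RefSeq's GRCm38 table. The title of NC 3 was used, since a source label of that sample carries the number of NC 2. Alternatives covered the scaling, background, filters, spots, replicates and test.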

Additional observations from a re-analysis of the deposited data

How the results depend on the processing

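All 8 differences of Mbp and Chgb (IP, Sup, m6A level, expression) kept their sign under each alternative run. Keeping non-uniform spots and the replicate block could not move these differences, since no such spot was present and the block is balanced. Without background correction, the difference was -1.92 in IP, -0.58 in Sup, -0.51 in m6A level and -1.41 in expression for Mbp, and -0.98 in IP and -0.69 in expression for Chgb. With normexp on median intensities it was -1.16 in IP, -0.33 in Sup and -0.82 in expression for Mbp, and -0.50 in IP, -0.13 in m6A level and -0.36 in expression for Chgb. Taken as log2 IP/Sup, the m6A difference was -1.95 for Mbp and -1.69 for Chgb. Leaving out each replicate gave Mbp -4.09 to -2.74 in IP, -2.22 to -1.08 in Sup, -0.46 to -0.32 in m6A level and -3.73 to -2.40 in expression. It gave Chgb -2.70 to -1.58 in IP, -0.70 to -0.18 in Sup, -0.52 to -0.21 in m6A level and -2.18 to -1.37 in expression.

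The number of probes called lower in HFD, in the order IP, Sup, m6A level and expression, was 326, 880, 120 and 536. Called higher were 4623, 2022, 869 and 3366. The number called lower was 1403, 1225, 213 and 1185 with median centring, and 197, 250, 10 and 166 without background correction. It was 62, 80, 8 and 73 with normexp, and 860, 2358, 374 and 1873 without the filter. A strict filter, which tested fewer probes, gave 125, 291, 12 and 166. The methods' t-test called 205, 414, 57 and 306. At an adjusted p under 0.05 in limma, 0, 1, 0 and 1 remained, against 5185, 3735, 1737 and 6379 probes at an unadjusted p under 0.05 in either direction. With scan and first position number as a random block, chosen after seeing the data, the counts were 561, 1044, 300 and 555. The fitted correlations within such a block were negative (-0.28, -0.11, -0.42 and -0.05). The block is nested in diet and is not known to be the slide, so these counts do not bear on a slide effect. Leaving out each replicate gave 252 to 496, 559 to 1479, 126 to 226 and 440 to 703. The cause of these shifts was not tested.

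With a replicate block, the counts were 288, 1027, 180 and 546. Same-numbered samples correlated between -0.24 and 0.13, and 3 of 12 NC profiles correlated best with their own number, so the numbers were not taken as pairs. Signal over background limits these values: Chgb Sup on all arrays, Mbp Sup on all but NC 2, Mbp IP on HFD 1 and HFD 2 and Chgb IP on HFD 1 were not well above it, so the Sup differences are of processed values and not measured folds.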
